A study of Mus musculus with 4 samples.

Results

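The core circadian clock genes were followed in RNA-seq counts from the stromal vascular fraction of mouse inguinal fat, the cells left when floating adipocytes are taken off digested tissue. The 10 genes were chosen by name from clock biology: Arntl and Clock of the positive limb, Per1, Per2, Per3, Cry1, Cry2, Nr1d1 and Nr1d2 of the negative limb, and the output gene Dbp. All 10 were among the 26214 gene symbols listed and among the 16196 that passed the low-count filter. The study had 2 libraries from mice treated with a medicinal herb extract (MHE) and 2 from mice given phosphate-buffered saline (PBS), each named by its label as a biological replicate. The labels used here give no strain, sex, age, diet, dose or duration, and no time of day at which tissue was taken.

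The clock of each cell is a feedback loop of transcription. ARNTL (also called BMAL1) pairs with CLOCK and binds E-box sequences, which switches on the Per and Cry genes, whose proteins return to the nucleus and inhibit that pair. The same pair drives Nr1d1 and Nr1d2, which encode the repressors REV-ERB alpha and beta. These act at ROR response elements and hold Arntl down, so Arntl and targets such as Nr1d1 peak at opposite times of day. DBP is a direct E-box output that acts on D-boxes. In fat, the clock times lipid synthesis, lipid release and hormone output, and single time points read a phase as well as a level.

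Motif letters of this loop were looked for in the RefSeq promoter windows of GRCm38.p6, 300 bases long with 250 before and 50 after each start site. Of the 10 genes, 9 matched, with 13 windows between them; Per2 had no entry. The search covered both strands for the E-box CACGTG, the E-prime box CACGTT (which reads AACGTG on the other strand), the D-box TTATGTAA, the ROR element core TAGGTCA and the cAMP response element TGACGTCA. They are shown because they are the letters through which the limbs act on each other, and each 30-base stretch below has its match in capitals.
Arntl, ROR element core, 30 bases downstream of a start site, chr7:113207530-113207559, plus strand: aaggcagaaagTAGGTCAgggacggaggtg
Per1, E-box, 166 bases upstream, chr11:69098771-69098800, plus strand: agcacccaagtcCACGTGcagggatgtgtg
Per3, D-box, 205 bases upstream, chr4:151044852-151044881, minus strand: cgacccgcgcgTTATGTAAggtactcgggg
Per3, D-box, 158 bases upstream, chr4:151044805-151044834, minus strand: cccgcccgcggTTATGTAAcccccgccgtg
Cry1, E-box, 60 bases upstream, chr10:85185097-85185126, minus strand: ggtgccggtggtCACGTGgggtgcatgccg
Cry1, E-prime box, 79 bases upstream, chr10:85185116-85185145, minus strand: acacacttcagaAACGTGaggtgccggtgg
Cry2, E-prime box, 166 bases upstream, chr2:92434218-92434247, minus strand: acacatggtgggAACGTGagggggcggagc
Nr1d1, E-prime box, 28 bases upstream, chr11:98775388-98775417, minus strand: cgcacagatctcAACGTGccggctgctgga

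The ROR element core was found in Arntl alone among these genes, and 2.61% of all 32851 windows held it. The E-box was in 2 of the members' 13 windows (15.4%) and in 7.15% of all windows. For the E-prime box it was 3 (23.1%) and 4.68%, and for the D-box 1 (7.69%) and 0.938%. The cAMP response element was in 0 of the 13 windows and in 1.79% of all. The windows of Clock, Nr1d2 and Dbp were searched and held none of these motifs. Windows of the same gene can overlap, as those of Arntl do. The 2 stretches of Cry1 overlap in sequence. A match describes letters and is not a measured binding site.

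No core clock gene passed the test between MHE and PBS. Of 16196 genes tested, 4.93% had an adjusted p under 0.05 by edgeR's quasi-likelihood test with Benjamini-Hochberg adjustment, and 0 of the 10 members did. At an unadjusted p under 0.05 there was 1 member, Cry2, beside 28.6% of all genes. With library totals alone the count was 2 (Per2 and Cry2), beside 28.2%, and without the low-count filter 2 (the same genes), beside 22.8%. That count was 2 (Clock and Cry2, beside 31.3% of all genes) with the replicate number as a block, 2 (Per2 and Cry2, beside 13.8%) without MHE replicate 1, 0 (beside 15.1%) without MHE replicate 2, and 4 (Per2, Cry2, Nr1d2 and Dbp, beside 31.9%) without PBS replicate 1. By adjusted p, DESeq2 called 1 member, also Cry2, beside 19.3% of the genes to which it gave an adjusted p, and limma-voom called 0, beside 7.00% of all genes. Without PBS replicate 1 edgeR called 1 member, Cry2, beside 16.5% of all genes. It called 0 members without PBS replicate 2 (14.6% of all genes), with no filter on low counts (4.18%) and with the replicate block (4.72%). Without MHE replicate 1 or MHE replicate 2, edgeR called 0% of all genes, members included. The log2 fold change was above 0 for 5 members and below 0 for 5, where 48.8% of all genes were above 0. The members' median log2 fold change was 0.02 against -0.02 over all genes tested, and their median size was 0.42 against 0.53. Log2 fold changes are MHE minus PBS, and CPM is depth-scaled counts corrected by TMM, a factor that corrects for differences in library make-up.

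**Figure D1:**
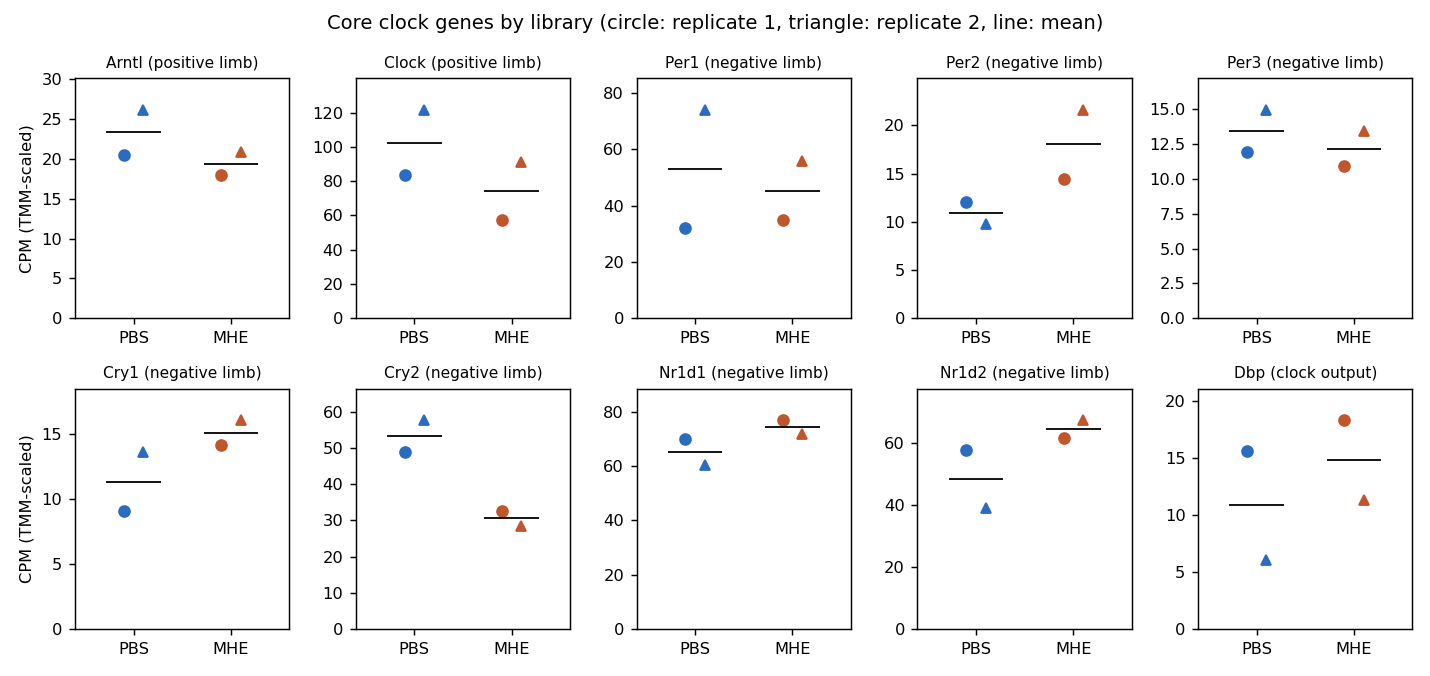
Level of each core clock gene in CPM (vertical axes, from 0, a separate scale per gene) in PBS and MHE libraries; circles are replicate 1, triangles replicate 2 and lines group means of 2 libraries. Cry2 is lower in both MHE libraries (28.5 and 32.7) than in both PBS libraries (48.9 and 57.7), whereas PBS replicate 2 alone holds the highest Per1 (74.0) and the lowest Dbp (6.05).

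The positive limb was the part with both genes lower on average with MHE, and neither difference passed. Arntl, the partner of CLOCK and the gene whose loss stops the clock (chromosome 7, 113207465 to 113314126 in GENCODE M21 on GRCm38, the assembly of mm10), stood at 18.0 and 20.8 CPM in MHE replicates 1 and 2 and at 20.5 and 26.2 CPM in PBS replicates 1 and 2. The groups overlapped, with PBS replicate 1 just under MHE replicate 2. Its log2 fold change was -0.27 ± 0.23 (SE, n = 2 libraries per group; adjusted p = 0.48 by edgeR). Clock, which encodes the other subunit of the activator (chromosome 5, 76209868 to 76304792), had 57.5 and 91.4 CPM with MHE and 83.4 and 122 CPM with PBS. Here too the higher MHE library lay above the lower PBS library. The log2 fold change of Clock was -0.46 ± 0.33 (edgeR adjusted p = 0.398).

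Among the Per genes, whose proteins form the repressor complex with CRY, the 3 members differed in sign and none passed. Per2 (chromosome 1, 91415982 to 91459324) had 14.4 and 21.6 CPM with MHE and 12.1 and 9.80 CPM with PBS. Both MHE libraries lay above both PBS libraries, although MHE replicate 1 was closer to PBS replicate 1 than to its own partner. The log2 fold change of Per2 was 0.72 ± 0.29, a fold of 1.65 (edgeR adjusted p = 0.188), with a 95% interval from -0.03 to 1.47.

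Per1, a Per gene that also responds quickly to cAMP and glucocorticoids (chromosome 11, 69095217 to 69109960), had 34.8 and 55.7 CPM with MHE and 32.1 and 74.0 CPM with PBS. The PBS libraries enclosed both MHE libraries and were 2.31-fold apart. Its log2 fold change of -0.23 ± 0.46 (edgeR adjusted p = 0.768) was 0.08 without MHE replicate 1 and 0.50 without PBS replicate 2, on the other side of 0. Per3, which is dispensable for rhythm in mice (chromosome 4, 151003652 to 151044665), was even across libraries, at 10.9 and 13.4 CPM with MHE and 11.9 and 14.97 CPM with PBS. Its log2 fold change was -0.14 ± 0.26 (edgeR adjusted p = 0.742), and it turned to 0.03 when libraries were scaled by their totals alone, to 0.01 without MHE replicate 1 and to 0.04 without PBS replicate 2.

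The 2 cryptochrome genes, which encode the main inhibitors of the CLOCK pair, had differences of opposite sign. Cry2 had 32.7 and 28.5 CPM with MHE and 48.9 and 57.7 CPM with PBS. The groups were well apart, with a gap of 16.2 CPM between the nearest libraries, against 4.12 and 8.78 CPM within MHE and PBS. The log2 fold change of Cry2 was -0.80 ± 0.20, a fold of 0.574, with a 95% interval from -1.32 to -0.29 (unadjusted p = 0.0102 and adjusted p = 0.0858 by edgeR). It passed the threshold with DESeq2 (adjusted p = 0.0236) and without PBS replicate 1 (edgeR adjusted p = 0.0496).

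Over its alternatives the adjusted p of Cry2 ran from 0.0236 to 0.355, and its log2 fold change stayed between -0.93 and -0.63. Cry1 (chromosome 10, 85131700 to 85185064) had 14.2 and 16.04 CPM with MHE and 9.06 and 13.6 CPM with PBS. The groups did not overlap, but PBS replicate 2 came within 0.558 CPM of MHE replicate 1. Its log2 fold change was 0.41 ± 0.29 (edgeR adjusted p = 0.386), and 0.13 without PBS replicate 1 against 0.75 without PBS replicate 2.

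The REV-ERB genes, the repressors of Arntl, were somewhat higher in both MHE libraries and did not pass. Nr1d1 had 76.9 and 71.8 CPM with MHE and 70.1 and 60.5 CPM with PBS, close to continuous across the 4 libraries. The difference in log2 was 0.19 ± 0.20 (edgeR adjusted p = 0.562). Nr1d2 (chromosome 14, 18204054 to 18239127) had 61.9 and 67.4 CPM with MHE and 57.8 and 39.0 CPM with PBS, and PBS replicate 2 was the library that stood low. The log2 fold change of Nr1d2 was 0.42 ± 0.25 (edgeR adjusted p = 0.332), against 0.17 without PBS replicate 2 and 0.71 without PBS replicate 1.

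Dbp, a PAR bZIP transcription factor whose RNA swings widely over the day, was the most uneven member. It had 18.3 and 11.3 CPM with MHE and 15.6 and 6.05 CPM with PBS. The groups overlapped, and the replicates differed 1.62-fold within MHE and 2.58-fold within PBS. The log2 fold change was 0.45 ± 0.52 (edgeR adjusted p = 0.599), with a 95% interval from -0.89 to 1.79. It was 0.07 without MHE replicate 1, 1.27 without PBS replicate 1, and -0.07 without PBS replicate 2.

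**Figure D2:**
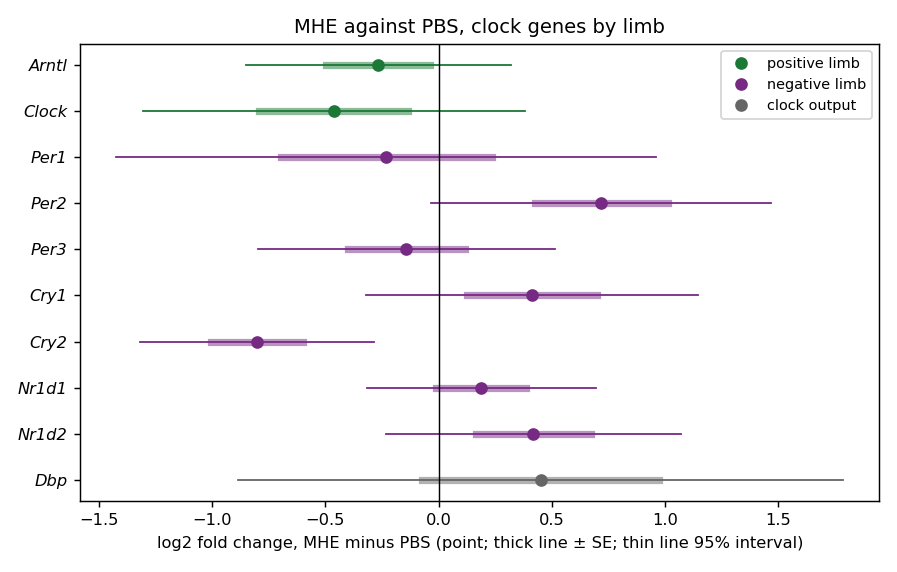
Log2 fold change of each clock gene, MHE minus PBS (horizontal axis), by gene; points are edgeR estimates from 2 libraries per group, thick lines ± SE and thin lines 95% intervals, coloured by limb. The interval of Cry2 (-1.32 to -0.29) lies wholly below 0 before adjustment, and those of the other 9 genes include 0.

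Set against each other, the limbs had medians of opposite sign. The positive limb had a median log2 fold change of -0.36 over 2 genes, the negative limb 0.19 over 7 genes, and the negative limb with Dbp 0.30 over 8 genes. The last exceeded the positive limb by 0.66. The negative limb itself was divided: Per2, Cry1, Nr1d1 and Nr1d2 were above 0, and Per1, Per3 and Cry2 below. Without MHE replicate 1 the difference between limbs was 0.27, and without PBS replicate 2 it was 0.25. No p is given for a score over chosen genes, and what the limbs show rests on medians of genes that share the same 4 libraries.

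A ratio of 2 genes within a library needs no scaling between libraries. Arntl and Dbp normally peak at opposite times, and the ratio of their counts was 0.987 and 1.85 in MHE replicates 1 and 2, and 1.31 and 4.33 in PBS replicates 1 and 2. MHE replicate 1 was lowest and PBS replicate 2 highest, with the other two in between and overlapping. The mean log2 ratio was 0.43 ± 0.64 (SD, n = 2) with MHE and 1.25 ± 1.22 with PBS, a difference of -0.82 (exact two-sided permutation p = 0.667, where 0.33 is the smallest that 2 against 2 libraries can give). Without PBS replicate 2 the difference was 0.04, so its sign rests on that library.

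For most members the replicates of a group differed by more than the groups did. The difference of group means (log2 CPM, prior count 2) exceeded the gaps within both groups for 2 of the 10 members, Per2 and Cry2, against 49.5% of all genes tested. The gap between the PBS libraries exceeded the difference between groups for the other 8 members, against 37.7% of all genes. The libraries of the groups did not overlap for 5 members (Per2, Cry1, Cry2, Nr1d1 and Nr1d2), or 50%, beside 62.0% of all genes tested.

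**Figure D3:**
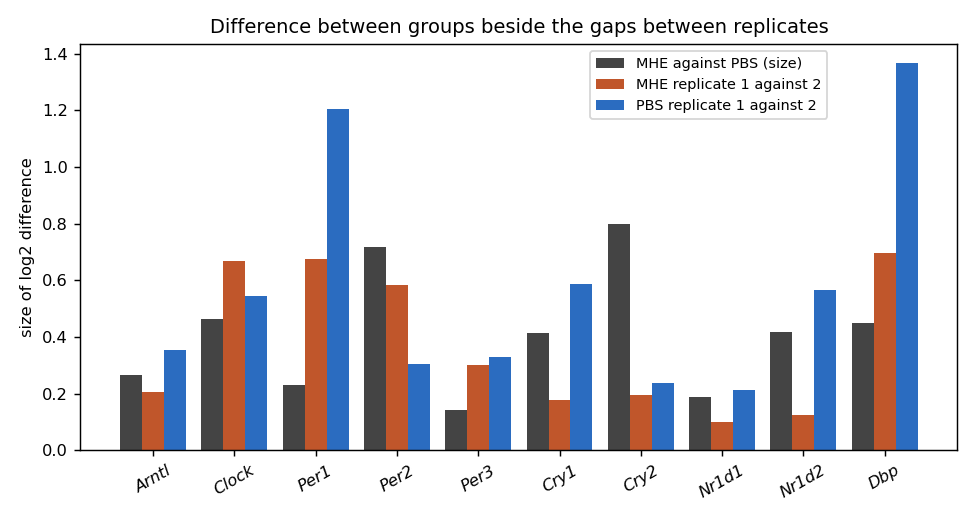
Size of the log2 difference (vertical axis) for each clock gene between MHE and PBS (grey, edgeR estimate) and between the 2 replicates of MHE (orange) and of PBS (blue), on log2 CPM. Grey is the tallest bar for Per2 (0.72) and Cry2 (0.80), and the PBS gap is the tallest for Per1 (1.21) and Dbp (1.37).

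PBS replicate 2 was at the end of the range for most clock genes, a pattern chosen after its values were seen. It was the highest of the 4 libraries for Arntl, Clock, Per1, Per3 and Cry2 and the lowest for Per2, Nr1d1, Nr1d2 and Dbp, which is 9 of 10 members. Over all genes tested it was highest or lowest for 59.8%. With library totals alone the count was 8 of 10, beside 61.1%. MHE replicate 1 was at an end for 5 members and PBS replicate 1 for 2. Within PBS, replicate 2 differed from replicate 1 by a log2 of 0.35 for Arntl, 0.55 for Clock and 1.21 for Per1, and by -0.57 for Nr1d2 and -1.37 for Dbp. The ratio of Per1 to Per2 counts, which needs no scaling between libraries, was 7.56 in PBS replicate 2 and 2.42 to 2.65 in the other libraries; gene length enters it equally in each.

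**Figure D4:**
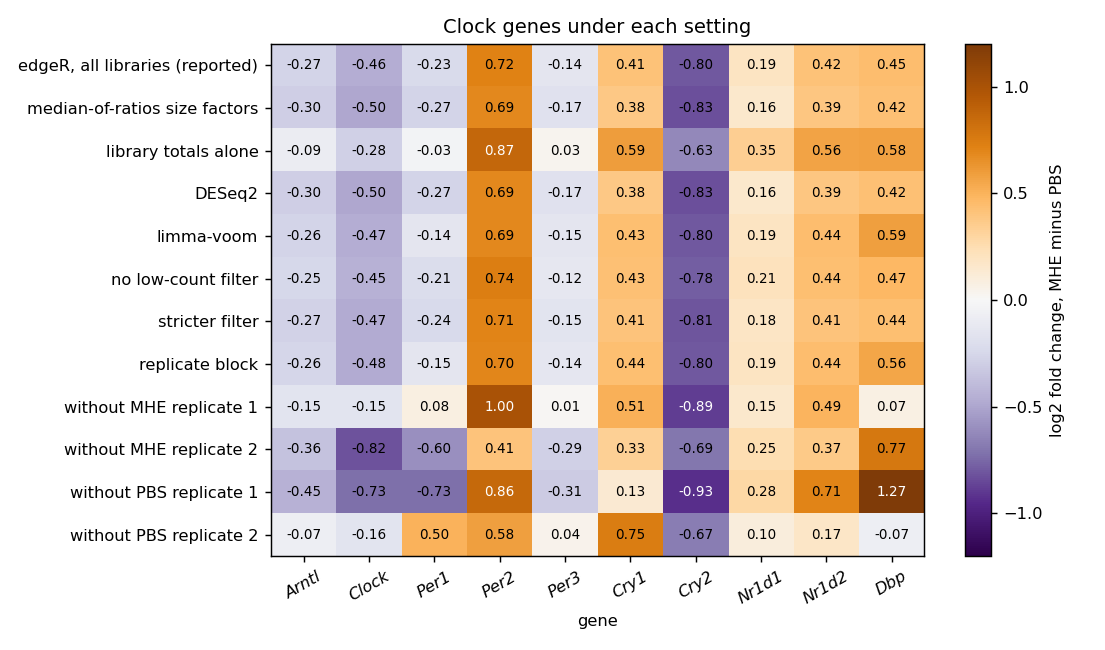
Log2 fold change of each clock gene (columns), MHE minus PBS, under the reported fit and 11 alternatives (rows), printed in each cell and coloured from purple (lower with MHE) to orange (higher). Cry2 ranges from -0.93 to -0.63, while Per1, Per3 and Dbp change sign in at least 1 row.

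Levels of different genes are compared per length, as CPM per kilobase of merged exons in GENCODE M21 (GRCm38), since the gene models behind the deposited counts are not given here. Nr1d1 was the most abundant at a mean of 22.7 CPM per kilobase over the 4 libraries, and its lowest library (19.7) was above the highest of Nr1d2 (12.5), next in order at 10.5. Per1 followed at 8.73, then Cry2 at 6.64, Clock at 6.45, Dbp at 4.28, Cry1 at 3.96, Arntl at 2.84 and Per2 at 2.47. From Nr1d2 down to Per2, each gene's range over the libraries overlapped that of the next. Per3 was the lowest at 1.33, and its highest library (1.56) was under the lowest of Per2 (1.67).

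The sources used here do not give the use of strand in counting, and 4 members share exons with a gene on the other strand. Dbp (chromosome 7, 45705088 to 45710203) shares 539 bases, 18.0% of its merged exons, with Sphk2, a sphingosine kinase gene. Sphk2 had 38.4 and 34.1 CPM with MHE and 35.6 and 23.1 CPM with PBS, so PBS replicate 2 was low there as well. Nr1d1 (chromosome 11, 98767932 to 98775333) shares 263 bases (8.55%) with the thyroid hormone receptor gene Thra, whose log2 fold change was -0.55 ± 0.25 (edgeR adjusted p = 0.217), opposite in sign to that of Nr1d1. Cry2 (chromosome 2, 92403646 to 92434043) shares 295 bases (4.67%) with the transcript D930015M05Rik, which had 1.08 to 1.96 CPM. Arntl shares 33 bases (0.439%) with Gm45355. Unless strand was used in counting, reads in shared bases cannot be told apart.

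Other clock genes were taken from lists of factors, modifying enzymes and clock-controlled genes. None of these 37 genes passed (4 at an unadjusted p under 0.05, where 28.6% of all genes were), and their median log2 fold change was -0.12. In the list of 14 other clock factors, 0 passed (2 at an unadjusted p under 0.05). There 9 were above 0, where 48.8% of all genes were, and the median was 0.23. The smallest p were those of Sfpq, an RNA-binding partner of the PER complex (238 and 261 CPM with MHE, 127 and 108 with PBS; log2 fold change 1.09, edgeR adjusted p = 0.0672), and Timeless, a replication fork protein (0.98, edgeR adjusted p = 0.0812). DESeq2 called Sfpq and Timeless, beside 19.3% of the genes to which it gave an adjusted p. For limma-voom, which called 7.00% of all genes, none of the 14 passed.

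Of 12 genes for kinases, ubiquitin ligases and a deubiquitinase that act on clock proteins, 0 passed (1 at an unadjusted p under 0.05). In this list 2 were above 0 and 10 below, where 48.8% of all genes were above 0, and the median was -0.10. By library totals alone the median was 0.08 and without PBS replicate 2 it was 0.03, on the other side of 0. Their smallest p belonged to Prkaa2, a subunit of the energy sensor AMPK that marks CRY for breakdown (-1.01, edgeR adjusted p = 0.13), the deubiquitinase gene Usp2 (-0.84) and the CRY ligase gene Fbxl21 (-0.70). Fbxl21 had only 21 to 65 counts per library. DESeq2 and limma-voom called none of them, beside 19.3% of genes with an adjusted p and 7.00% of all genes.

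Of 11 clock-controlled genes, 0 passed (1 at an unadjusted p under 0.05). In this list 2 were above 0 and 9 below, where 48.8% of all genes were above 0. The median was -0.13, and 0.02 by library totals alone. Pdk4, a brake on glucose oxidation, stood at 349 and 651 CPM with MHE and 921 and 1438 with PBS (log2 fold change -1.24, edgeR adjusted p = 0.16). DESeq2 called it, beside 19.3% of genes with an adjusted p, and limma-voom did not. Klf10 and Avpr1a had -0.36 and -1.05. Avpr1a stood at 3.46 and 4.39 CPM with MHE and 12.3 and 3.99 with PBS, so only PBS replicate 1 stood high.

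Because Per1 is also an acute response gene, lists of glucocorticoid-responsive and immediate early genes were read beside it. Of 12 glucocorticoid-responsive genes, 0 passed and 5 had an unadjusted p under 0.05, beside 4.93% and 28.6% of all genes. In this list 3 genes were above 0 and 9 below, with a median of -0.37. The smallest p were those of the metallothionein gene Mt2 (-2.86, edgeR adjusted p = 0.058), the cell cycle inhibitor gene Cdkn1a (-1.31) and Mt1 (-1.80), which other signals also induce. DESeq2 called 4 (beside 19.3% of genes with an adjusted p), limma-voom 1 (7.00%) and edgeR with the replicate block 1 (4.72%). Pdk4, which is in this list and in the clock-controlled one, was among the DESeq2 calls of both. Leaving out PBS replicate 1 or PBS replicate 2, which raised the calls over all genes to 16.5% and 14.6%, edgeR called 4 or 2.

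Of 14 immediate early genes, 3 rose by edgeR: Egr3 (log2 fold change 4.29, adjusted p = 0.0192), Fosb (3.89, adjusted p = 0.0469) and Ier2 (1.24, adjusted p = 0.0427). These 3 calls stand beside 4.93% of all genes. Of the 14 genes, 8 had a log2 fold change above 0 and 6 below, where 48.8% of all genes were above 0. The list's median was 1.05, and Per1 stood at -0.23, on the side of the 6. Without MHE replicate 1 or MHE replicate 2, 0 of the 14 and 0 of all genes tested passed, and the median without MHE replicate 2 was 0.36. DESeq2 called 7 (beside 19.3% of genes with an adjusted p) and limma-voom 2 (7.00%). Without PBS replicate 1 edgeR called 4 (16.5%) and without PBS replicate 2 it called 3 (14.6%), and Fosb was in neither set, nor was it called by limma-voom, without the low-count filter or with the replicate block.

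**Figure D5:**
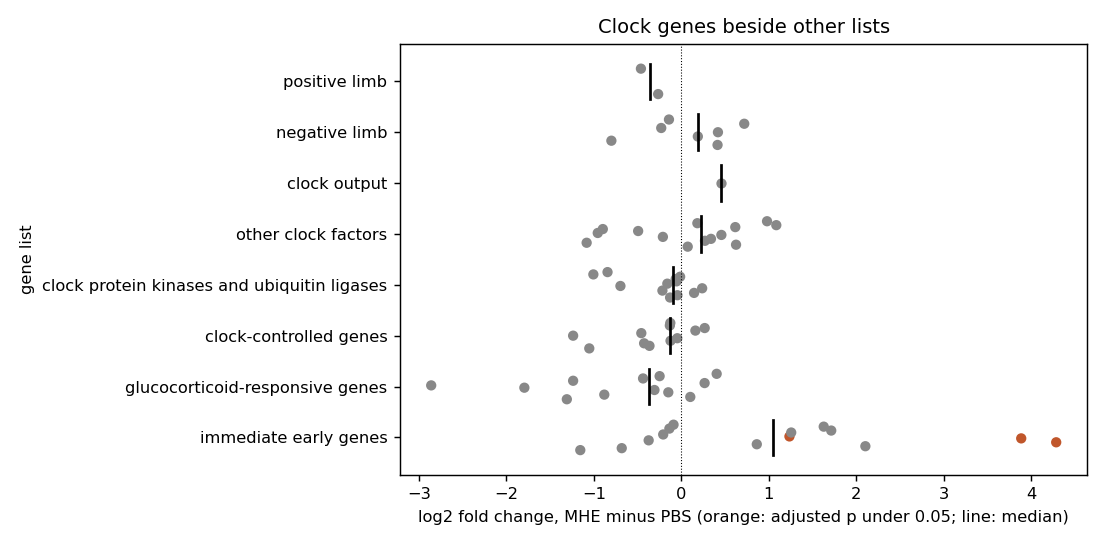
Log2 fold change, MHE minus PBS (horizontal axis), of every tested gene in the 3 clock groups and 5 other lists (rows); grey points did not pass, orange points had an edgeR adjusted p under 0.05, and black lines are medians. Only immediate early genes hold orange points (3), and the clock rows lie on both sides of 0.

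For Arntl and Dbp, the genes with the nearest profile were sought among 10449 tested genes whose mean log2 CPM was 3 or more, as the Euclidean distance between log2 CPM values centred over the 4 libraries. Arntl was nearest to Pde7b, Pigf and Sun1, at distances of 0.020 to 0.031. Pde7b, a cAMP phosphodiesterase gene, had 17.7 and 20.7 CPM with MHE and 20.3 and 26.2 with PBS. Dbp was nearest to Clic1, Fxyd6 and Pira1, at 0.23 to 0.25. Provisional symbols (Gm and Rik) were left out of the search. Distances were not scaled to a gene's own spread, which was wider for Dbp, so those of Arntl and Dbp are not compared. With 4 libraries, likeness describes these libraries only.

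The cell mixture also differed between the libraries. T cell markers (11 genes) took 0.0824% to 0.112% of counts with MHE and 0.00248% to 0.00487% with PBS, and B cell markers (10 genes) 0.169% to 0.217% and 0.000851% to 0.0112%. Lymph node stroma markers (6 genes) took 0.0501% to 0.0870% with MHE and 0.00128% to 0.0143% with PBS, with Ccl19 at 0 in every library, Madcam1 at 0 in PBS replicate 1 and Glycam1 at 0 in PBS replicate 2. Mature adipocyte markers (12 genes) took 2.15% to 2.85% with MHE and 2.998% to 3.996% with PBS, with PBS replicate 2 the highest. Adipocyte RNA was thus present in every library of a fraction freed of floating adipocytes. By log2 fold change 9 of these markers were below 0, and 3 were above: Cfd (0.73), Pck1 (0.57) and Adrb3 (1.45). For smooth muscle markers (10 genes) the shares were 0.0648% to 0.0992% with MHE and 0.303% to 0.352% with PBS. Skeletal muscle markers (8 genes) took 0.00659% and 0.0172% in MHE replicates 1 and 2 and 0.0284% and 0.104% in PBS replicates 1 and 2. Most of these counts were Acta1 (1757 and 4424 with MHE, 7363 and 34736 with PBS). Of the 7 tested, 3 had a log2 fold change below 0 (Acta1, Myh1 and Ckm). The other 4 (Myh4, Mylpf, Tnnt3 and Atp2a1) were above 0 at 80 counts or fewer per library, and the list's median was 3.20. Mylpf and Myh2 were at 0 in PBS replicate 1 and Ckm in PBS replicate 2. Progenitor, endothelial and macrophage markers, which define the fraction, were all above 0 in every library, at 0.127% to 0.235%, 0.0979% to 0.162% and 0.154% to 0.405% of counts. In bulk RNA, fewer cells of a type and less RNA per cell cannot be told apart, and the part of these mixtures in the clock genes' values was not tested. Libraries held 27161882 to 33391075 counts, and each member had 179 to 3602 counts per library.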

How the data were processed

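RNA-seq of total RNA from the stromal vascular fraction of inguinal fat gave 2 MHE and 2 PBS libraries; the labels' protocols mention 3 per treatment, and the others were not analysed here. The authors deposited raw read counts per gene symbol, not normalized. TopHat2, edgeR and limma and the build mm10 are named in the submitters' processing notes, without versions, and the sources used here do not give the counting program or annotation.

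Counts were tested with edgeR 4.0.16 (R 4.3.3): filterByExpr (minimum count 10, total 15), TMM, estimateDisp and a robust quasi-likelihood fit of treatment over the 4 libraries, with Benjamini-Hochberg adjustment over all 16196 genes and a threshold of 0.05. Standard errors (SE) were derived from each log2 fold change and its F statistic, and 95% intervals use the fit's t quantile. The biological coefficient of variation was 33.6%. TMM factors were 1.07 and 1.049 (MHE) and 1.005 and 0.886 (PBS). The procedure was tested on simulated data. The edgeR p-values set the difference between groups against the spread between libraries of a group, estimated with information shared across genes.

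Each result was recomputed with DESeq2 1.42.0, with limma-voom (limma 3.58.1), with median-of-ratios factors or library totals for scaling, without the filter or with a stricter one (1 CPM in 2 libraries, 50 counts summed), with replicate numbers as blocks, and leaving out 1 library at a time. The genes and lists were chosen with earlier results of these data known. Named genes were all 10 members, those of each other clock or response list that passed or else its 3 with the smallest p, and the 3 nearest profiles of Arntl and Dbp. A gene that meets this rule is not reported here. Marker lists are given as shares of counts.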

Additional observations from a re-analysis of the deposited data

How the results depend on the processing

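The count of all genes past the threshold was 799, and 2951 with DESeq2; leaving out 1 library gave 0 (without either MHE library) to 2750 (without PBS replicate 1). The count of clock members was 0, and 1 (Cry2) with DESeq2; leaving out 1 library gave 0 to 1. With the replicate number as a block it was 0, and Cry2 had -0.80; the labels do not say that a number pairs libraries, and deviations of same-numbered libraries correlated at 0.12 over genes. The difference between limbs (0.66) ran from 0.25 to 0.88 with 1 library left out, and that of the Arntl to Dbp log2 ratio (-0.82) from -1.68 to 0.038. Signs turned for Per1 (0.08 without MHE replicate 1 and 0.50 without PBS replicate 2; range from -0.73), Per3 (0.031 by library totals, 0.01 without MHE replicate 1 and 0.041 without PBS replicate 2; range from -0.31) and Dbp (-0.067 without PBS replicate 2; range to 1.27); the cause was not tested. The other 7 members kept their sign under all 11 alternatives. Library totals raised the median of all log2 fold changes by 0.16. With 1 library left out, its group has a single one and the spread comes from the other group, assumed to hold for both. With 2 libraries per group, the 95% interval lay within 2-fold either way for 3 members (Arntl, Per3 and Nr1d1), and for the other 7 a 2-fold difference lies inside it.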
